A study of Mus musculus with 1183 samples.

Results

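The lung of the newborn mouse held a small lymphoid compartment beside its macrophages, granulocytes and B cells. The 72 cells described here are those that the submitters' subtype label calls T cell (46 cells), IL cell (14 cells) or NK cell (12 cells), out of 1183 single cells in the series. The label does not spell out "IL", and the name is used here as it stands. All cells were taken from the distal lung of 1 female and 1 male mouse at postnatal day 7, after hyperoxia, that is, breathing a raised level of oxygen. Cells were sorted into plates, and each sample is the plate-based Tn5 single-cell RNA-seq library of 1 cell. The female gave 26 T, 9 IL and 5 NK cells of 598 cells, and the male gave 20 T, 5 IL and 7 NK cells of 585. CD45, the pan-leukocyte surface protein, was the sorting gate for 71 of the 72 cells, and 1 NK cell of the male came from a CD31 plate. Sample titles carry a code that plate 1 of the female does not share with the other CD45 plates. Cells of the CD45 plates with the common code are called the shared sequencing run here, although the titles do not say what the code stands for. Every cell compared here carries the same treatment, and samples at normal oxygen were not analysed here, so no effect of hyperoxia was estimated. With 1 animal per sex, sex and animal cannot be told apart. The labels do not say how subtypes were assigned. Labels may have been set from expression in the same cells, so the tests below say how labelled classes differ and give no separate support to a label.

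T cells recognise peptide through a clonal receptor whose alpha and beta, or gamma and delta, chains signal through the CD3 subunits and the kinase LCK. Natural killer (NK) cells carry no rearranged receptor and act through germline-encoded receptors, cytotoxic granules and interferon gamma. Innate lymphoid cells also lack a rearranged receptor; those of type 2 depend on GATA3, respond to the alarmin IL-33 through IL1RL1 and release IL-5, IL-13 and amphiregulin in the lung around birth.

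Reads per cell ranged from 94326 to 3805806 with a median of 1246893. The medians by label were 1225936.5 in T, 1569765.5 in IL and 914171 in NK cells. Levels are given in CPM, reads of a gene per 1000000 reads of a library, where a library is the sum of all cells with 1 label from 1 animal. Where 2 levels follow each other, the first is the female library and the second the male. A gene is called present in a cell at 50 CPM and detected at 10 reads. Differences are log2 fold changes ± SE from edgeR's quasi-likelihood test with 2 animals per label, and adjusted p values are Benjamini-Hochberg values over all genes tested. The spread behind these p values is that between a single female and a single male library per label. It was estimated jointly over all 15 labels, or all 4 compartments, in the fit. It is therefore not the spread of the T, IL and NK libraries alone.

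Some cells stood apart from their label before any comparison was made. At least 3 markers of macrophages and monocytes were present in 3 T cells, each of which also carried Trac and CD3 chains. Their Lyz2 levels, lysozyme of myeloid cells, were 12250 CPM in T cell 6, 5761 in T cell 7 and 23998 in T cell 16, and all 3 were most like the label Mac II. Summed over the macrophage list of 6 genes, the other T cells stayed under 1000 CPM, IL cells spanned 0 to 9.38 CPM and NK cells 0 to 625 CPM, against a median of 15497 CPM in the mononuclear phagocytes of the series. C1qa, 1 of the 6 genes of the macrophage list, was at 0 in all 72 cells, including the 3 T cells with macrophage markers. In the NK label, cell 4 from the CD31 plate (187947 reads) and cell 5 (94326 reads) held no T, NK or IL marker. These 5 cells are called the doubted cells, a choice made after seeing the data. Results without them are given for some of the counts and for genes picked by the naming rule below whose calls changed. Calls of other single genes between labels were not followed this way. B cell markers summed to at most 634 CPM in any of the 72 cells against a median of 11505 in B cells, and mast cell and basophil markers to at most 936 CPM against 10960. Neutrophil markers reached 393.02 CPM and dendritic cell markers 731 CPM. The 3 endothelial markers summed to 3565 CPM in 1 NK cell and reached 1463 CPM among T cells, 2 of which passed 1000 CPM, and the 3 epithelial markers reached 1257 CPM in 1 T cell. Cell 4 of the NK label, from the CD31 plate, was the one NK cell with endothelial markers present, 2 of 3. The part of such transcripts in the comparisons was not tested.

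**Figure D1:**
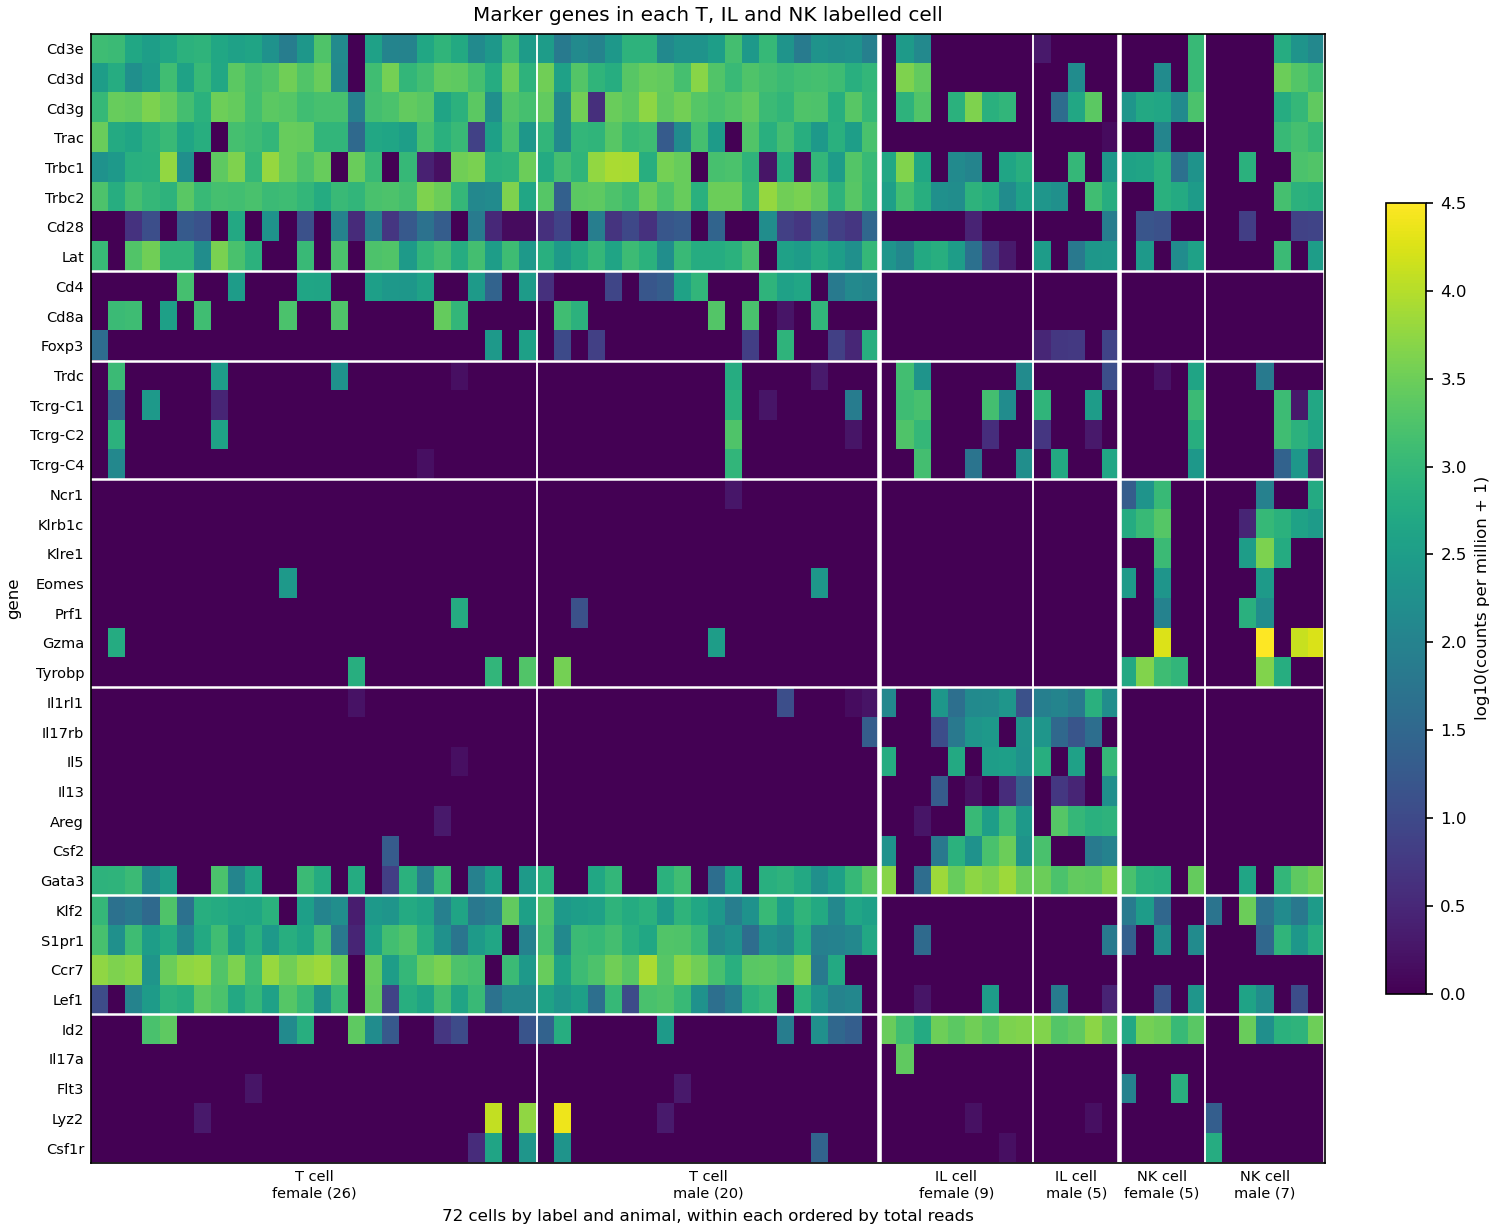
Marker genes (rows) in each of the 72 cells (columns), coloured by log10(CPM + 1), with cells grouped by label and animal and ordered by reads. T cells share the CD3 and Trac rows, IL cells the Gata3 and Il1rl1 rows, and the NK columns are mixed.

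The T cell label matched its markers closely, the IL label matched type 2 innate lymphoid markers in most cells, and the NK label was mixed. At least 2 of the 3 CD3 chains Cd3e, Cd3d and Cd3g were present in 45 of 46 T cells (97.8%, 95% exact Clopper-Pearson interval 88.5 to 99.9%), 3 of 14 IL cells (21.4%, 4.66 to 50.8%) and 5 of 12 NK cells (41.7%, 15.2 to 72.3%). These intervals cover counting error only. At least 2 of the 6 NK markers (Ncr1, Klrb1c, Klre1, Eomes, Prf1, Gzma) were present in 8 of 12 NK cells (66.7%, 34.9 to 90.1%), in 0 of 46 T cells, which allows a share of up to 6.52%, and in 0 of 14 IL cells, which allows up to 21.4%. At least 2 of the 6 IL markers (Il1rl1, Il17rb, Il5, Il13, Areg, Csf2) were present in 12 of 14 IL cells (85.7%, 57.2 to 98.2%) and in no T or NK cell. The same rule was met by 13.1% of granulocytes, a group that includes mast cells and basophils. Among the cells that should lack T cell receptors, the CD3 rule was met by 6 of 65 B cells (9.23%), 1 granulocyte (0.373%) and 8 of 778 mononuclear phagocytes (1.03%). Of those 15 cells, 12 also carried the alpha and beta constant regions, and 5 of the 6 in the B label had fewer than 2 B cell markers.

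**Figure D2:**
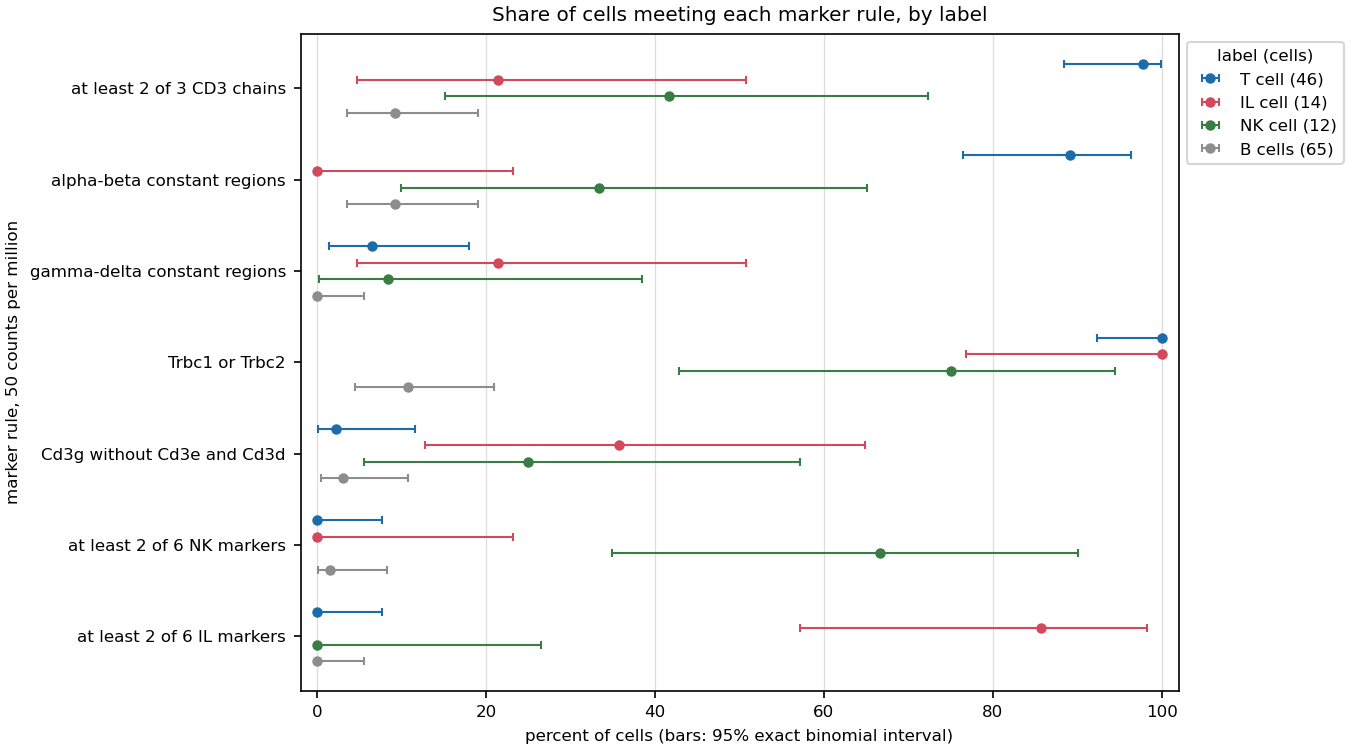
Share of T, IL, NK and B cells (x axis, percent) that met each marker rule (y axis) at 50 CPM, with 95% exact intervals. The CD3 rule was met by 45 of 46 T cells and the IL rule by 12 of 14 IL cells, and Trbc1 or Trbc2 was present in all 14 IL cells while Trac was present in none.

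Transcripts of the T cell receptor complex reached into the IL and NK labels, and unevenly by chain. Cd3g, the gamma subunit of CD3, was present in 45 of 46 T cells, 8 of 14 IL cells and 8 of 12 NK cells. Its levels were 1635 and 1887 CPM in T cells, 988 and 623 in IL cells, 710 and 1421 in NK cells, and 139.4 and 187.3 in B cells. Cd3e, the epsilon subunit, stood at 477 and 325.9 CPM in T cells, 24.1 and 0.121 in IL cells and 304.7 and 173.1 in NK cells. Cd3d, the delta subunit, stood at 1591 and 1552 CPM in T cells, 420 and 28.5 in IL cells and 330 and 1355 in NK cells. Of the 3 chains, Cd3g came nearest to its own T cell level in both IL libraries. It was present without Cd3e and Cd3d in 5 of 14 IL cells and 3 of 12 NK cells, against 1 of 46 T cells and 2 of 65 B cells. None of the 3 chains was called between the labels.

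The constant regions separated more sharply than the CD3 chains. Trac, the alpha constant region, stood at 879 and 840 CPM in T cells and was present in 41 of 46, while the 14 IL cells held 1 read in all. In NK cells Trac was uneven between animals, at 19.8 and 865 CPM. Trbc1 or Trbc2, the beta constant regions, was present in all 46 T cells, all 14 IL cells and 9 of 12 NK cells, against 7 of 65 B cells (10.8%) and 9 of 778 mononuclear phagocytes. Trbc2 alone stood at 456 and 569 CPM in IL cells and at 1518 and 2285 in T cells. Variable segments differed by chain. Any of 18 Trbv genes was present in 43 of 46 T cells, in 3 of 12 NK cells and in 0 of 14 IL cells, so the beta constant transcript in IL cells came without one of these beta variable segments at 50 CPM. The delta variable segment Trdv4 was instead present in 12 of 14 IL cells, against 3 of 46 T and 2 of 12 NK cells. Trdv4 stood at 329.1 and 230.3 CPM in IL cells, 8.86 and 2.91 in T cells and 61.3 and 0 in NK cells, and was not called between T and IL cells (edgeR adjusted p = 0.500) or IL and NK cells (0.697).

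The 3 CD3 genes lie side by side on chromosome 9, and the 250 bases before each RefSeq start site are printed because the chains parted in IL and NK cells. Capitals mark the letters CAGGTG, or else CAGCTG, on either strand, an E-box form that E proteins, the partners of ID2, can bind.
Cd3g (GRCm38.p6, chr9:44980432-44980681, minus strand): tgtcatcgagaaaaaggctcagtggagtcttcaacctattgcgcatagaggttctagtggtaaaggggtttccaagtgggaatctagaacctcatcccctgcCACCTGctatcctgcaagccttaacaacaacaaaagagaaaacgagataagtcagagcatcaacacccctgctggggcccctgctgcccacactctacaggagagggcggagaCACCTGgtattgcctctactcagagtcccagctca
Cd3d (GRCm38.p6, chr9:44981536-44981785, plus strand): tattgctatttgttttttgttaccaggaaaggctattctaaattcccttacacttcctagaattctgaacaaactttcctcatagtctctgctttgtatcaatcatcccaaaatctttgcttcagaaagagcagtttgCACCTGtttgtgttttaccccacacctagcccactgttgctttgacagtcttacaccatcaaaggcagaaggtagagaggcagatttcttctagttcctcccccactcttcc
Cd3e (GRCm38.p6, chr9:45009612-45009861, minus strand): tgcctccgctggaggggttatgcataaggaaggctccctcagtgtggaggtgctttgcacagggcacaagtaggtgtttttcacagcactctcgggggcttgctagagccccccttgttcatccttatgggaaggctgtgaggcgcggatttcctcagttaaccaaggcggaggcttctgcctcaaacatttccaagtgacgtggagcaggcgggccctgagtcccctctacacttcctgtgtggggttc
All 3 are printed 5′ to 3′ on the gene's strand. Cd3g held CAGGTG on the opposite strand with first bases at -148 and -35 from the start, Cd3d held it at -112, and Cd3e held neither form. Either form occurs in 27.7% of 32851 RefSeq promoters of the same length. RUNX letters (TGTGGT, or else TGCGGT, both strands), which 18.6% of those promoters hold, were not found in the 3 windows. A match is a description of the letters and not a bound site.

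**Figure D3:**
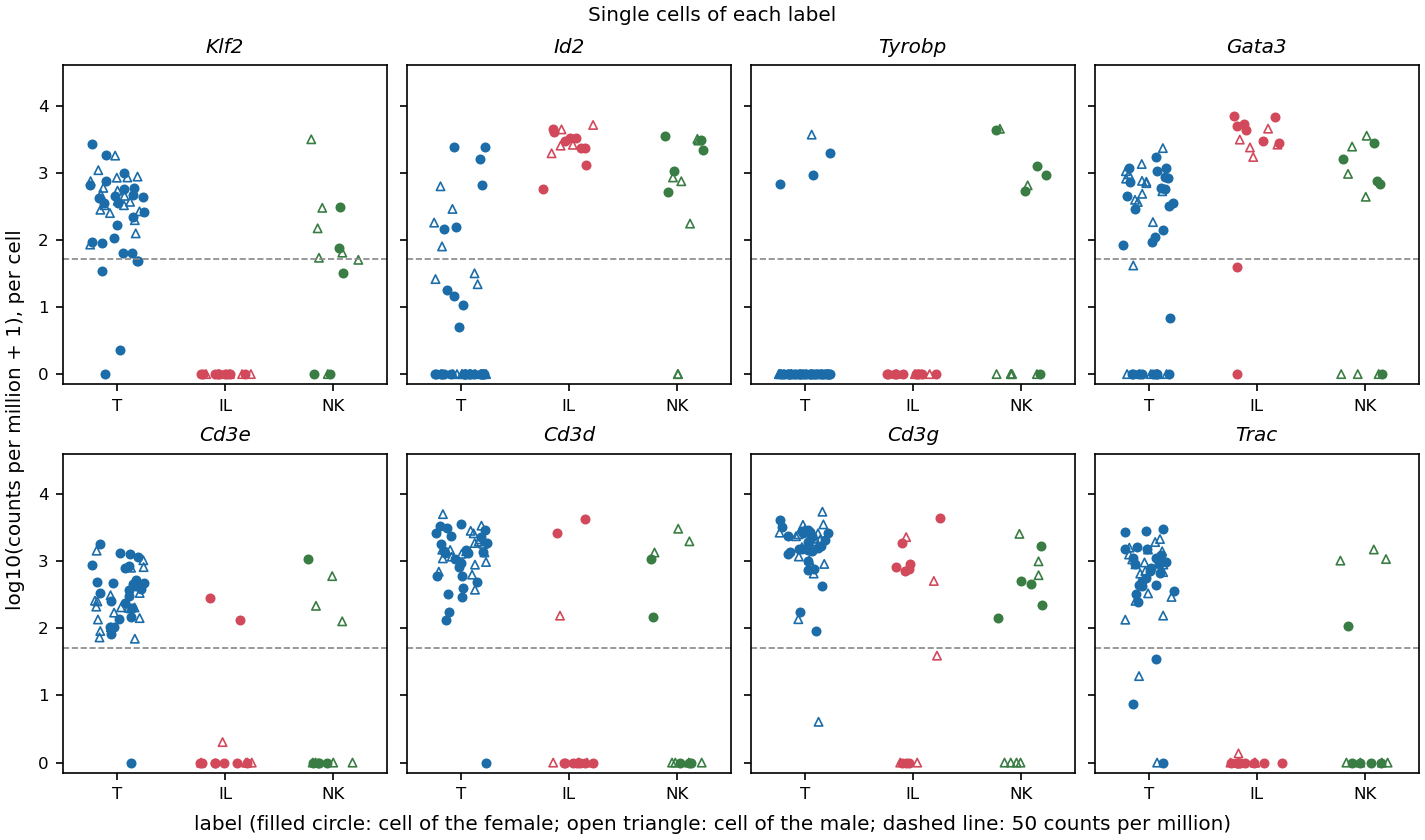
Level per cell (y axis, log10 of CPM + 1) of 8 genes in T, IL and NK cells, 1 point per cell; the dashed line marks 50 CPM. Klf2 was at 0 in all 14 IL cells, Id2 was present in all 14, and Cd3g was present in 8 of them.

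What T, IL and NK cells shared against the rest of the immune cells was a short list. Summed over the 3 labels, the lymphoid libraries were higher than B cells for 97 genes (0.628% of 15448 tested), than granulocytes for 1.12% of genes and than mononuclear phagocytes for 2.25%. The B cell libraries include the 6 cells that met the CD3 rule, 5 of them with fewer than 2 B cell markers. The part of those cells in the comparison with B cells was not tested. Genes higher than in all 3 were 16 (0.104%), and 4 of them were detected in at least 1 in 3 cells of each label: Skap1, Thy1, Hsd11b1 and Bin2. The remaining 12 were detected in fewer than 1 in 3 cells of at least 1 label. Il5, Pxdc1 and Stab2 were detected in IL cells only, 5830411N06Rik in T cells only, Csf2 and Rxrg in 10 and 11 of 14 IL cells and at most 1 cell of each other label, and Lck in 45 T, 9 NK and 3 IL cells.

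Skap1, an adaptor that couples the T cell receptor to integrin adhesion, was the most even of the 4. It was found at 905 and 982 CPM in T cells, 1048 and 1044 in IL cells and 481 and 732 in NK cells, against 70.1 and 79.1 in B cells, 193.7 and 113.5 in granulocytes and 2.67 and 2.98 in mononuclear phagocytes. No lymphoid library overlapped with any other. The differences were 3.64 ± 0.35 against B cells (edgeR adjusted p = 0.00471), 2.34 ± 0.34 against granulocytes (adjusted p = 0.012) and 8.27 ± 0.44 against mononuclear phagocytes (adjusted p = 0.000366). Skap1 was called in all 3 comparisons when either lymphoid library was left out, but not against B cells in the fit of 15 subtypes (adjusted p = 0.223; range over 11 alternatives 7.31e-18 to 0.223).

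Thy1, a surface glycoprotein of T and innate lymphoid cells, stood at 116.7 and 198.9 CPM in T cells, 208.3 and 183.4 in IL cells, and 57.6 and 9.46 in NK cells, where only 1 of 12 cells reached 50 CPM. B cells held 13.1 and 5.07 CPM, granulocytes 0.204 and 0.276, and mononuclear phagocytes 2.14 and 1.95. The male NK library therefore lay within the range of B cells. Against B cells the difference was 4.06 ± 0.65 (edgeR adjusted p = 0.0295); that call was lost without the female lymphoid library (adjusted p = 0.059), without the male (adjusted p = 0.0935) and with the animal as a block (adjusted p = 0.0592; range over 11 alternatives 4.3e-10 to 0.398).

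Hsd11b1, an enzyme that regenerates active glucocorticoid, stood at 290 and 196.6 CPM in T cells, 243.4 and 270 in IL cells and 175.6 and 613 in NK cells, against 22.3 to 75.98 CPM in the 6 libraries of other compartments. The groups did not overlap, and the difference was 2.95 ± 0.35 against B cells (edgeR adjusted p = 0.00891). Bin2, a membrane-curving protein of blood cells, stood at 1449 and 1090 CPM in T cells, 1280 and 1151 in NK cells, and 443 and 366.97 in IL cells, against 228.8 to 366.2 CPM elsewhere. IL cells held it just above the other compartments and far below T and NK cells. Its differences were 1.83 ± 0.31, 1.51 ± 0.31 and 1.88 ± 0.31 against B cells, granulocytes and mononuclear phagocytes (edgeR adjusted p = 0.0387, 0.0416 and 0.0169). Hsd11b1 against granulocytes was not called without the female (adjusted p = 0.0734) or the male lymphoid library (0.114). Bin2 was likewise lost against B cells (0.0841 and 0.065) and granulocytes (0.0978 and 0.0849), over ranges of 3.92e-06 to 0.253 and 0.000197 to 0.0978 for its 11 alternatives.

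Of the 16 shared genes, 6 were still called above all 3 compartments without the female lymphoid library and 8 without the male, where 9 genes were called in all. Averaging the 3 labels within the fit of 15 subtypes left 2, none of them among the 16, so the list describes summed cells, of which T cells are 46 of 72. Without the doubted cells 18 genes were called above all 3, including all 16.

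**Figure D4:**
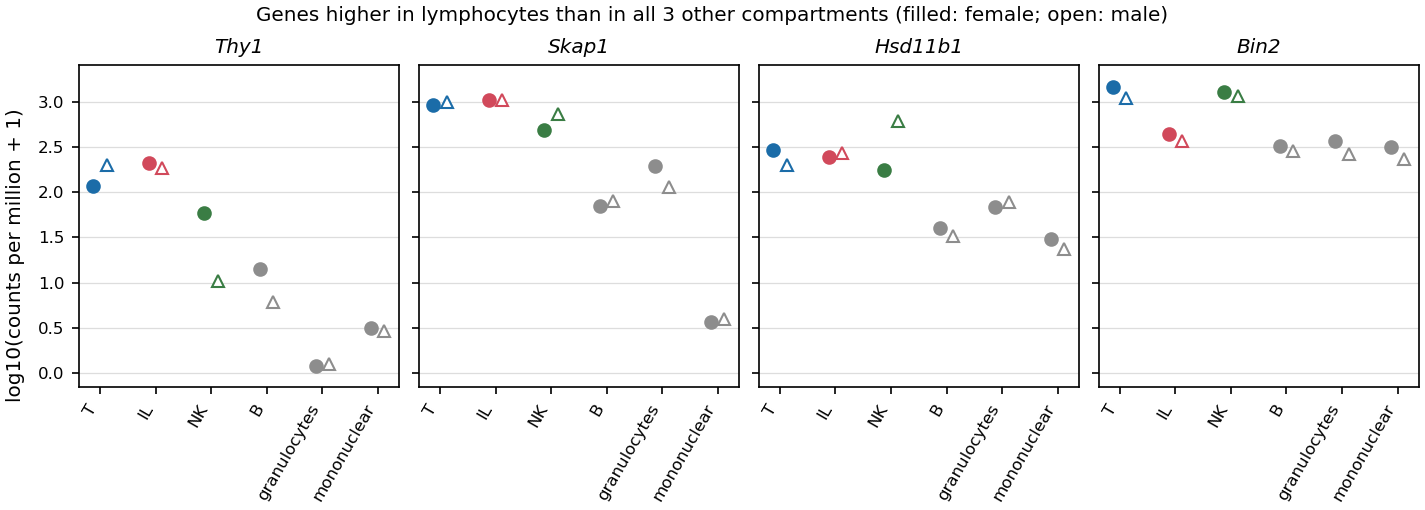
Levels (y axis, CPM on a log10 axis of CPM + 1) of Skap1, Thy1, Hsd11b1 and Bin2 in T, IL, NK and B cells, granulocytes and mononuclear phagocytes; filled circles are the female and open triangles the male library. Skap1 and Hsd11b1 lie higher in all 6 libraries of T, IL and NK cells than in any other.

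The pan-lymphocyte list of 23 genes, including the GTPases of the Gimap family, was mostly higher than in myeloid cells. Against mononuclear phagocytes 20 were higher (median log2 difference 6.48 over the list, -0.23 over all genes), against granulocytes 17 (3.01 and -0.19) and against B cells 5, namely Skap1, Thy1, Prkcq, Lck and Il7r (1.19 and 0.00). Of the 18 genes of the T cell receptor complex and its proximal signalling, 11 were higher than in granulocytes (median 8.29), 11 than in mononuclear phagocytes (7.77) and 3 than in B cells (2.90), among them the adaptor Lat and the kinase Lck. Transcription factors followed the same order, with 10 of 23 higher than in mononuclear phagocytes (median 3.36), among them Tcf7, Lef1, Bcl11b and Gata3, 7 higher than in granulocytes (2.81) and only Id2 higher than in B cells (2.28). In the list of 7 ITAM adaptors, which pass on signals from immune receptors, Cd3e, Cd3d, Cd3g and Cd247 were higher and Fcer1g and Tyrobp lower than in both myeloid compartments. These lists were set with earlier results of these data known, and the counts describe them without a set test. Counts against B cells include the 6 cells of the B label with CD3 chains, whose part was not tested.

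Il7r, the receptor chain for the survival cytokine IL-7, was among the 16 but uneven by label. It stood at 1046 and 418 CPM in T cells (present in 36 of 46), 433 and 576 in IL cells (12 of 14) and 67.9 and 237.03 in NK cells (2 of 12), against 104.9 and 103.3 in B cells. Of the 6 lymphoid libraries, the female NK library was the one below B cells. Cxcr6, a homing receptor for CXCL16, was carried by IL cells: 1736 and 1896 CPM with 13 of 14 cells positive, against 41.02 and 2.498 CPM in T cells. In NK cells it stood at 1581 and 435 CPM, with 83% of the reads in 1 cell.

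T and IL cells differed in both directions, with more genes higher in T cells. T cells were higher for 0.942% of the 15600 genes tested and IL cells for 30 genes (0.192%). The T cell side included Klf2 and Ms4a6b, and the IL side Id2, Ltb4r1, Il5, Il1rl1 and Cdkn1a. Without the 5 doubted cells, 3 T and 2 NK cells, 53 genes were called higher in T cells and 37 higher in IL cells. Only 72 of the main calls were kept. Of 10 named genes on the T side 3 lost the call, among them Ifi209 (edgeR adjusted p = 0.0529) and Slamf6 (0.0536). On the IL side 5 of 10 lost it: Cdkn1a, Il5 (0.0732), Il1rl1 (0.0542), Sdc4 (0.0783) and Fgl2 (0.0688). The share of each cell in these changes was not tested.

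Klf2, a transcription factor that maintains S1pr1 in circulating T cells, kept its call under each alternative run. It was present in 41 of 46 T cells, at 479 and 485 CPM in the libraries and a median of 361.5 CPM per cell. All 14 IL cells held 0 reads of it. T cells were at least 3653-fold higher than IL cells, taking 3 counts over the group as the limit of a count of 0 (edgeR adjusted p = 9.65e-05), and over its 13 alternatives the adjusted p ranged from 7.78e-16 to 0.0326. NK cells, at 65.3 and 447 CPM with 7 of 12 cells positive, were at least 1719-fold higher than IL cells (adjusted p = 0.000211; range 8.27e-15 to 0.0375). A single NK cell gave 51.1% of the NK reads. The limit of 3 counts treats reads as independent draws. Amplified copies are counted as reads here, and a single cell can hold many of them. The folds given as "at least", here and below, are therefore nominal and not guaranteed minimum differences.

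Other genes of lymphocyte traffic were also at higher levels in T cells, without passing the threshold. Ccr7, the lymph node homing receptor, stood at 2482 and 1798 CPM and was present in 42 of 46 T cells, and no read of it was found in IL or NK cells (adjusted p = 0.0801 and 0.0755, not called). S1pr1, the receptor for egress, stood at 513 and 524 CPM in T cells against 2.90 and 21.8 in IL cells, and Lef1, a factor of naive T cells, at 731 and 421 against 37.4 and 11.4, neither of them called.

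Id2, which blocks E proteins and is needed for innate lymphoid and NK cells, ran the other way. It stood at 3138 and 3290 CPM in IL cells and 2143 and 1981 in NK cells, against 217.9 and 45.1 in T cells. Every IL cell held it, from 571 to 5136 CPM, while 29 of 46 T cells were at 0. The difference of T against IL cells was -4.47 ± 0.78 (edgeR adjusted p = 0.00649), and of T against NK cells -3.82 ± 0.76 (adjusted p = 0.0151). Without the male T library the latter was no longer called (adjusted p = 0.0943; range over 13 alternatives 4.93e-07 to 0.341).

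More genes were higher in T cells and nearly silent in IL cells. Ms4a6b, a four-span membrane protein of lymphocytes, stood at 1858 and 1354 CPM in T cells, was present in 41 of 46, and had no read in IL cells, at least 12594-fold higher (adjusted p = 0.00981). Klhdc2, a substrate receptor for a ubiquitin ligase, stood at 155.7 and 121.8 CPM against 0 (at least 1080-fold, adjusted p = 0.00212). Epsti1, an interferon-responsive gene, stood at 199.1 and 263.3 CPM in T and 162.2 and 293.1 in NK cells, while IL cells held 1 read (adjusted p = 0.00182 and 0.00191). Klf2 and Epsti1 kept their call between T and IL cells in all 13 alternatives. Ifi209, another interferon-induced gene, stood at 150 and 151.5 CPM and the actin crosslinker Actn1 at 88.6 and 34.5 CPM, both with 0 reads in IL cells; with the animal as a block Ifi209 was not called (adjusted p = 0.0536, range 2.03e-07 to 0.195). Vsir, which encodes the checkpoint protein VISTA, stood at 348.4 and 101.1 CPM against 5 reads in IL cells (10.28 ± 2.24, adjusted p = 0.0241). Slamf6, a receptor of lymphocytes, stood at 542 and 561 CPM against 1 read (adjusted p = 0.0386; 0.0517 with the animal as a block, range 3.15e-08 to 0.237), and Ctse, cathepsin E, at 88.7 and 68.1 CPM against 2 reads (adjusted p = 0.0134).

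The 10 named genes on the IL side had varied roles. Of the fixed lists, 1 of 20 cytokines (Il5) and 1 of 18 cytokine receptors (Il1rl1) were higher in IL than in T cells. Ltb4r1, the receptor for leukotriene B4, stood at 786 and 775 CPM in IL cells, was present in 11 of 14, and had no read in T or NK cells (at least 15914-fold and 3713-fold, edgeR adjusted p = 0.00741 and 0.00856). Both animals gave nearly the same level. The call against T cells was lost without the female T library (adjusted p = 0.0995) and without the male (adjusted p = 0.0555), and that against NK cells without the male NK library (adjusted p = 0.0507), over ranges of 7.43e-14 to 0.0995 and 1.01e-10 to 0.0507. Cdkn1a, the cell cycle inhibitor p21, stood at 758 and 1120 CPM in IL cells against 3.29 and 13.2 in T cells (T against IL -6.70 ± 0.93, adjusted p = 0.000868), though only 6 of 14 IL cells reached 50 CPM. Its call was lost without the doubted cells (adjusted p = 0.0827), in the shared sequencing run (0.137) and with limma voom (0.946), over a range of 6.76e-16 to 0.946. Lpcat2, an enzyme that makes platelet-activating factor, stood at 277.7 and 200.5 CPM against 36 reads in a single T cell (-8.75 ± 1.57, adjusted p = 0.00781) and 0 in NK cells (at least 1185-fold, adjusted p = 0.00201). Lpcat2 and Cdkn1a were the 2 of 10 named genes on this side whose call against T cells held without each of the 4 libraries in turn; the call of Lpcat2 was lost in the shared run (0.0704) and in the fit of the 3 labels (0.523).

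Il1rl1, the IL-33 receptor, stood at 98.8 and 253.6 CPM in IL cells, was present in 10 of 14, and had 18 reads in T cells and none in NK cells (T against IL -8.81 ± 2.04, edgeR adjusted p = 0.0395; at least 736-fold over NK cells, adjusted p = 0.0127). With the animal as a block the call against T cells was lost (adjusted p = 0.0538; range 2.31e-07 to 0.514). Plscr1, a membrane protein induced by interferon, stood at 283.03 and 278.6 CPM against 12 reads (-10.08 ± 1.79, adjusted p = 0.00736), and Gas7, a cytoskeletal adaptor, at 56.6 and 321.4 CPM against 5 reads (-11.12 ± 2.17, adjusted p = 0.0122). The heparan sulfate proteoglycan Sdc4 stood at 598 and 709 CPM with 0 reads in T cells; with the animal as a block it was not called (adjusted p = 0.0537, range 1.09e-28 to 0.258). Fgl2, a fibrinogen-like protein, stood at 347.3 and 196.4 CPM against 21 reads (0.0579 with the block, not called, range 4.58e-08 to 0.243) and Rgs18, a regulator of G protein signalling, at 235.5 and 176.5 CPM against 1 read.

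Gata3, the factor that defines type 2 innate lymphoid cells, was not called, although IL cells held most of it. IL cells stood at 3943 and 3116 CPM, NK cells at 1169 and 2211 and T cells at 341.8 and 679. Of the 14 IL cells, 12 lay between 1710 and 7056 CPM and the other two at 38.9 and 0 CPM.

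Most calls between T and IL cells depended on single libraries. Over all genes, 1.13% were called, against 0.289% without the female T library, 0.461% without the male IL library, 0.641% without the female IL library and 0.749% without the male T library. Within the shared sequencing run, which leaves out plate 1 of the female, 20 genes were called, and 17 of them were also called in the main fit. Of 20 named genes, 5 (Klf2, Klhdc2, Epsti1, Lpcat2, Cdkn1a) were called in all 4 leave-one-out fits.

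**Figure D5:**
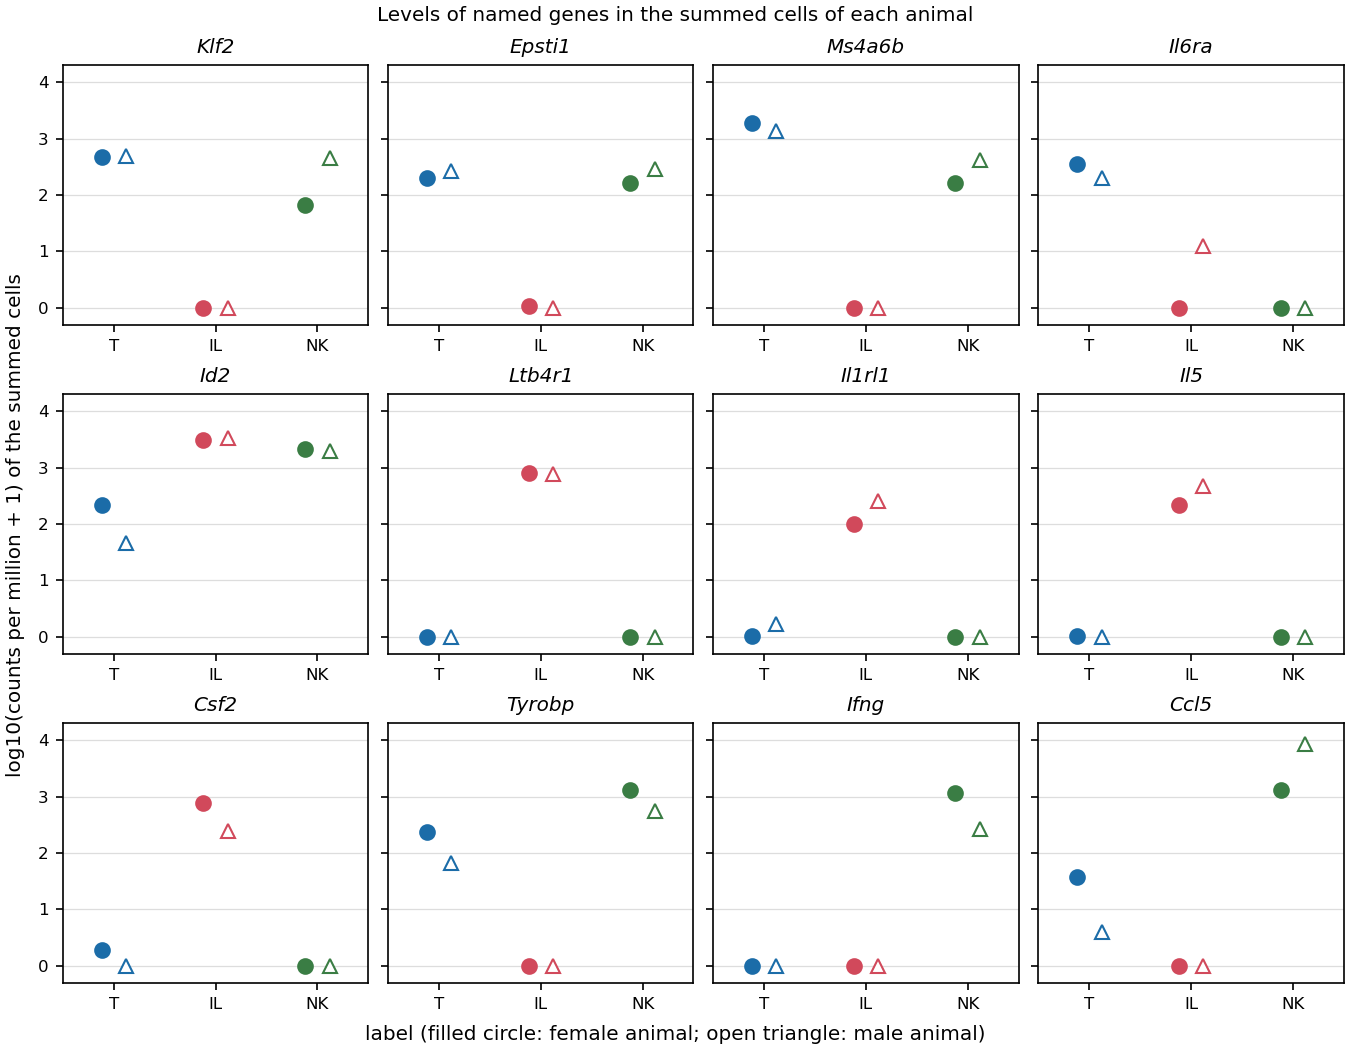
Levels (y axis, log10 of CPM + 1 of the summed cells) of 12 genes named in the comparisons, in T, IL and NK cells; filled circles are the female and open triangles the male library. Klf2 and Ms4a6b sit at 0 in IL cells, Ltb4r1 at 0 in T and NK cells, and Id2 is lowest in T cells.

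IL and NK cells differed in both directions. IL cells were higher for 1.31% of the 15600 genes tested and NK cells for 150 genes (0.962%). The IL side held Il5, Csf2, Il1rl1, Il2ra and Ltb4r1, and the NK side Ccl5, Ifng, Gzma, Klrd1, Cd160, Cd7 and Tyrobp. Of 20 cytokines tested, Il5 and Csf2 were higher in IL cells, Ifng and Ccl5 in NK cells, and 16 were not called. Of 18 cytokine receptors, Il2ra and Il1rl1 were higher in IL cells and 16 were not called, and none of 18 homing receptors was called.

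Il5, the eosinophil growth factor, stood at 217.3 and 476 CPM in IL cells and was present in 8 of 14, with 1 read in T cells and none in NK cells. IL cells were at least 1477-fold higher than NK cells (edgeR adjusted p = 0.0364), and the comparison with T cells gave an adjusted p of 0.0479; with the animal as a block both calls were lost (adjusted p = 0.0533 and 0.0787; ranges 2.51e-07 to 0.116 and 6.53e-08 to 0.224). Csf2, which encodes the growth factor GM-CSF, stood at 761 and 241.1 CPM in IL cells, was present in 10 of 14, and had 32 reads in 1 T cell and none in NK cells (at least 2716-fold over NK cells, adjusted p = 0.0252). Against T cells Csf2 was not called (adjusted p = 0.0801). Areg, amphiregulin, stood at 394 and 904 CPM in IL cells with 8 of 14 positive, 2 reads in T cells and none in NK cells, and was not called (adjusted p = 0.166 and 0.125). Il13 was rare, at 7.93 and 56.6 CPM, with 1 of 14 IL cells at 50 CPM and 79% of the reads in that cell. Granulocytes held Il13 at 29.5 and 50.3 CPM.

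Il5, Il13 and Csf2 lie on mouse chromosome 11, and the 250 bases before their RefSeq start sites are printed because Il5 and Csf2 were called between IL and NK cells and Il13 was not. Capitals mark GATA letters, the form that GATA3 binds, searched on both strands as AGATAA, then as TGATAA, then as AGATAG, and lastly as TGATAG.
Il5 (GRCm38.p6, chr11:53720544-53720793, plus strand): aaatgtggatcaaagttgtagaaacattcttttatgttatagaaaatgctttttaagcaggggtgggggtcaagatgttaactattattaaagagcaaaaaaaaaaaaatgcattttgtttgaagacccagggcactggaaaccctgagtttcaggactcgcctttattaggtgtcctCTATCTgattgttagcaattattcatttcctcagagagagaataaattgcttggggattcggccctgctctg
Il13 (GRCm38.p6, chr11:53634703-53634952, minus strand): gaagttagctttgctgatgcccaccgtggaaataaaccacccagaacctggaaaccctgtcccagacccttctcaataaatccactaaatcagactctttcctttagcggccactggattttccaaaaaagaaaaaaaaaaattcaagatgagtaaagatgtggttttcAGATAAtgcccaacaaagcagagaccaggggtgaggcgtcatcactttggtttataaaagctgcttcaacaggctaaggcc
Csf2 (GRCm38.p6, chr11:54249900-54250149, minus strand): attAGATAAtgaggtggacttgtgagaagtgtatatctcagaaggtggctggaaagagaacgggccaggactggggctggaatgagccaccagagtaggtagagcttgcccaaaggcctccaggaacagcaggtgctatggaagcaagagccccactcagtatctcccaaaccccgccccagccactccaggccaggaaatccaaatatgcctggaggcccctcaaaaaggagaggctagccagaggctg
Each window held 1 match, printed 5′ to 3′ on the gene's strand. Il5 had AGATAG on the opposite strand with its first base at -72, Il13 had AGATAA at -81 and Csf2 had AGATAA at -247. Such letters occur in 26.5% of 32851 RefSeq promoters. Here too a match describes letters and not a bound site, and its relation to the levels was not tested.

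Other genes higher in IL than in NK cells were silent in the latter. Il2ra, the high-affinity chain of the IL-2 receptor, stood at 196.3 and 105.5 CPM and was present in 10 of 14 IL cells (at least 775-fold, edgeR adjusted p = 0.0395, lost with the animal as a block at 0.0534, range 1.12e-06 to 0.138). Without the doubted cells Il2ra was not called either (edgeR adjusted p = 0.097). Tmem273, Ccdc184, Stab2 and the septin Sept8 also had 0 reads in NK cells, with IL levels of 75.6 to 553 CPM. The call of Stab2 was lost with the block (adjusted p = 0.0622, range 4.78e-07 to 0.276). Of the 10 named genes on this side, Lpcat2 was called in all 4 leave-one-out fits and the other 9 lost the call in at least 1.

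Of 8 cytotoxic granule genes tested, Gzma was higher in NK than in IL cells and 7 were not called, and none was called between T and NK cells. Ccl5, a chemokine of cytotoxic lymphocytes, stood at 1302 and 8583 CPM in NK cells, was present in 8 of 12, and had no read in IL cells (at least 33255-fold, edgeR adjusted p = 0.0161). Gzma, the granule protease granzyme A, stood at 3307 and 14323 CPM but was present in only 4 of 12 NK cells, with levels of 12980 to 37961 CPM in those 4. Gzma had no read in IL cells (at least 60461-fold, adjusted p = 0.0278) and stood at 6.53 and 14.6 CPM in T cells (not called against NK cells, adjusted p = 0.114). Ifng, interferon gamma, stood at 1140 and 262.8 CPM in NK cells with 6 of 12 positive, and 81% of its reads came from 1 cell. No read of Ifng was found in T or IL cells, so NK cells were at least 15642.5-fold and 5834-fold higher (adjusted p = 0.0155 and 0.0141).

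Receptors and adaptors of NK cells followed. Klrd1, the CD94 chain that pairs with NKG2 receptors, stood at 817 and 1482 CPM in NK cells with 8 of 12 positive and at 0 in IL cells (at least 8336-fold, edgeR adjusted p = 0.0372). Cd160, a receptor for HVEM and MHC class I, stood at 276.3 and 712 CPM (7 of 12) against 0 (at least 3494-fold, adjusted p = 0.0311). Cd7, an early lymphoid surface protein, stood at 1329 and 1476 CPM in NK cells and 263.6 and 128.03 in T cells, and had no read in IL cells (at least 10558-fold and 1596-fold, adjusted p = 0.00524 and 0.0122). Klrb1b, an inhibitory lectin-like receptor, was at 76.9 and 203.5 CPM in NK cells and at 0 in both other labels (adjusted p = 0.0477 against T and 0.0436 against IL cells); with the animal as a block both calls were lost (0.0606 and 0.0597; ranges 1.2e-07 to 0.436 and 2.35e-06 to 0.258). Plek, pleckstrin, at 176.7 and 176.6 CPM with 6 of 12 NK cells positive, had no read in IL cells (adjusted p = 0.00126). The peptidoglycan-binding protein Pglyrp1 stood at 126.3 and 482 CPM against 0, a call lost with the block (adjusted p = 0.0644; range 2.4e-26 to 0.203). Of the 10 named genes on the NK side, Cd7, Tyrobp, Klf2 and Plek were called in all 4 leave-one-out fits and the other 6 lost the call in at least 1. Of 13 NK receptors tested, Klrd1, Fcgr3 and Cd244a were higher in NK than in IL cells (list median -15.07 for IL against NK cells, -9.69 with genes at 0 set to their bound, 0.00 over all genes).

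Tyrobp, the DAP12 adaptor that pairs with activating NK receptors and is abundant in myeloid cells, stood at 1293 and 554 CPM in NK cells and at 0 in IL cells, at least 7441-fold (edgeR adjusted p = 1.08e-08). Limma voom did not call it (adjusted p = 0.939), and over 13 alternatives the adjusted p ranged from 3.18e-22 to 0.939. T cells stood at 230 and 66.7 CPM, with 4 of 46 positive, 3 of which are the T cells with macrophage markers. The T against NK difference was -2.47 ± 0.54 (adjusted p = 0.0259). Without the doubted cells it was -5.65 and no longer called (adjusted p = 0.0539; range over 13 alternatives 3.51e-05 to 0.978).

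Leaving out the female NK library raised the share of genes called between IL and NK cells from 2.28% to 3.34%, and leaving out each of the other 3 gave 1.45 to 1.90%. Within the shared sequencing run 140 genes (0.925%) were called, and 65 of them were also called in the main fit. The NK libraries are sums of 5 and 7 cells of different kinds, described below, and that mixture was not separated in the fit.

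By count of calls, T and NK cells differed mainly through genes higher in T cells. T cells were higher for 1.13% of genes and NK cells for 25 genes (0.16%). Without the doubted cells 76% of the calls were higher in T cells, rather than 87.6%. The T libraries sum 46 cells and the NK libraries 12, and the part of cell number in this split was not tested. Of the receptor complex list no gene of 18 was called between them (median 1.83, 0.41 over all genes). Il6ra, the IL-6 receptor, led the T side at 357.1 and 200 CPM with 31 of 46 cells positive and no read in NK cells (at least 1401-fold, edgeR adjusted p = 0.0151). Arl5c, a small GTPase, stood at 274.4 and 365.1 CPM against 1 read. Irak1, a kinase of the interleukin-1 and Toll-like receptor pathway, stood at 117.8 and 94.6 CPM against 2.80 and 5.15 (4.87 ± 1.13, adjusted p = 0.036). The ubiquitin ligase Rnf114 stood at 251.995 and 175.2 CPM against 11.7 and 11.6 (4.34 ± 0.83, adjusted p = 0.0123), and Cytip, which regulates adhesion, at 1041 and 421 against 107.1 and 55.4 (3.33 ± 0.74, adjusted p = 0.0288). Nsmce1, a subunit of the SMC5/6 complex, differed by 3.32 ± 0.74 and Mpc2, a subunit of the mitochondrial pyruvate carrier, by 2.87 ± 0.63.

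On the NK side, Ccr2, the receptor for CCL2, stood at 373.5 and 142.9 CPM in NK and 341.2 and 329.2 in IL cells against 9.18 and 4.29 in T cells (T against NK -5.09 ± 0.95, edgeR adjusted p = 0.0122; T against IL -5.50 ± 0.97, adjusted p = 0.00741). Chsy1, a chondroitin sulfate synthase, stood at 764 and 829 CPM in NK cells (9 of 12 positive) against 40.6 and 18.9 in T cells (-4.60 ± 0.82, adjusted p = 0.00711). Cbfa2t3, a transcriptional corepressor, stood at 241.8 and 130 CPM against 4.35 and 12.3 (-4.33 ± 0.73, adjusted p = 0.00453). Its call was lost without the female T library (adjusted p = 0.0783; range 2.28e-12 to 0.58). Itgb1, the beta-1 integrin, differed by -2.26 ± 0.55 and Unc119, a lipid-binding trafficking protein, by -2.86 ± 0.69.

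None of the 16 named genes between T and NK cells was called in all 4 leave-one-out fits. Over all genes, 1.29% were called, against 0.319% without the female T library, 0.665% without the male T library, 2.04% without the female NK library and 0.888% without the male NK library. Within the shared sequencing run 66 genes were called, and 19 of them were also called in the main fit. A fit of the 3 labels alone, with 6 libraries, called 1 gene, which was not among the main calls.

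Single cells show what the IL label held. Cells 4 and 9, both from the female, carried all 3 CD3 chains, Trdc, Tcrg constant regions and the variable segment Tcrg-V6 at 712 and 841 CPM. They also held Blk, a kinase, at 267.1 and 300 CPM and the factor Maf at 532 and 535 CPM, while Il1rl1 was at 0 and Gata3 at 38.9 and 0 CPM. Il17a, the cytokine interleukin-17A, stood at 2519 CPM in cell 9 and at 0 in cell 4. Cell 4 held Il23r, the IL-23 receptor, at 617 CPM and Sox13 at 314.2 CPM. Tcrg-V6, Blk, Maf, Sox13 and Il23r are known from gamma-delta T cells that make IL-17. Cells 4 and 9 are the 2 of 14 IL cells that did not meet the IL rule. Among the other 12 IL cells, both Il5 and Csf2 were present in cells 1, 2, 3, 5, 10, 11 and 14. Cell 6 held IL markers together with Cd3d at 153.3 CPM and Cd3g at 506 CPM.

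The NK label split into groups by receptor. In 4 of 12 cells NK markers and CD3 chains were present together: cells 6, 8 and 10 of the male, with Trac at 1491, 1018 and 1074 CPM and Klrb1c, the NK1.1 antigen, at 386.3, 293.7 and 738 CPM, and cell 11 of the female, with all 6 NK markers, Cd3g at 463 and Trac at 108.8 CPM. Another 4 met the NK rule without the CD3 rule: cells 1, 7, 9 and 12. Cell 9 held all 6 NK markers, with Gzma at 37961 CPM, Klre1 at 4111 and Tyrobp at 4502. Cell 7 held Ifng at 6212 CPM and Tyrobp at 4379. Cell 3 carried all 3 CD3 chains with Trdc at 418 CPM and Cxcr6 at 5525 CPM and no NK marker, and cell 2 held Flt3 at 731, Tyrobp at 926 and Klrd1 at 1043 CPM. Cells 4 and 5 were described above. By correlation of single-cell profiles with the mean profile of each label, 2 of 12 NK cells were most like the NK label and 6 were most like T cells.

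The same likeness was high for the other labels. Over 8924 genes, 41 of 46 T cells were most like T cells, 3 most like Mac II, 1 like IL cells and 1 like mast cell II, and all 14 IL cells were most like IL cells. With Spearman's in place of Pearson's correlation, 43 of 46 T, 14 of 14 IL and 2 of 12 NK cells were most like their own label. Because the mean profiles come from the same labels, these counts describe how tightly each label held together. T cell 15, the T cell most like IL cells, had neither Cd3e nor Cd3d at 50 CPM and held Id2 at 2383 CPM.

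Within the T cells, the coreceptors divided the label. Cd4 was present in 18 of 46 T cells (39.1%), Cd8a in 13 (28.3%), neither in 15 (32.6%) and both in 0, which allows a share of up to 6.52%. Both alpha and beta constant regions were present in 41 of 46 (89.1%, 95% exact interval 76.4 to 96.4%) and both gamma and delta constant regions in 3: cells 1, 10 and 23. Cell 1 carried both kinds, with Trdc at 1148, Tcrg-V1 at 419 and Trac at 554 CPM, and Cd8a at 1175 CPM. Of the 43 T cells with a Trbv gene, 32 held 1 and 11 held more, and all 18 genes were found, Trbv19 most often, in 8 cells. Foxp3, the factor of regulatory T cells, was present in 4 T cells, at 255.8, 366.8, 856 and 664 CPM, each with at least 2 of Il2ra, Ctla4 and Ikzf2. Of those 4, cells 6 and 7 are among the T cells with macrophage markers. Foxp3 alone was also present in 9 granulocytes (3.36%) and 22 of 778 mononuclear phagocytes (2.83%), but no cell of those compartments met the rule with the 3 companion genes.

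About 1 in 4 cells of each label held transcripts of several cell division genes. At least 4 of 10 cell cycle genes had 5 reads or more, after thinning each cell to 100000 reads, in 12 of 46 T cells (26.1%, 95% exact interval 14.3 to 41.1%), 4 of 14 IL cells (28.6%) and 3 of 11 NK cells (27.3%). Over the 3 labels that is 19 of 71 cells (26.8%, 16.9 to 38.6%), beside 19 of 64 B cells (29.7%), 22 granulocytes (8.24%) and 95 of 776 mononuclear phagocytes (12.2%). By animal, 5 of 26 T cells of the female and 7 of 20 of the male met this rule.

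IL cells held more genes per cell than T cells in both animals. At 100000 reads per cell the medians were 3035 and 3303 genes for IL cells, against 2314.5 and 2226 for T cells. NK cells were uneven, at 3717 and 2147.5 genes, with 1 NK cell under that depth left out. Without thinning the medians were 3824 and 4123 for IL, 3079.5 and 2947 for T and 4882 and 2718 for NK cells. With 1 animal per sex no test was made.

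The share of the 3 labels among CD45-sorted cells was 71 of 1173 (6.05%, 95% exact interval 4.76 to 7.57%). The female gave 40 of 592 (6.76%), the male gave 31 of 581 (5.34%), and plate 2 held more than plate 1 (45 of 593, 7.59%, against 26 of 580, 4.48%). The spread between plates of the same animals was thus wider than that between the animals. T cells made up 26 of the 40 lymphoid cells of the female and 20 of the 32 of the male, IL cells 22.5% and 15.6%, and NK cells 12.5% and 21.9%. Plate and sorting gate can set such shares, and no test was made.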

How the data were processed

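Single cells of distal lung from 1 hyperoxia-treated female and 1 male mouse were sequenced after a plate-based Tn5 protocol. The authors deposited whole-number read counts, with no scaling, for 18072 genes in each cell. Per the submitters' processing notes, reads were aligned with STAR 2.5.2b and counted with HTSeq 0.10. The notes name the build GRCh38, a human build, although the organism is mouse, so no coordinate is given for counted genes, and promoter sequences come from RefSeq (GRCm38.p6). The labels name no molecular identifiers, so amplified copies are counted as reads.

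Cells were grouped by the subtype label, and counts were summed per animal and label (15 labels, 30 libraries; Mac I, 1 cell, left out) or per animal and compartment (8 libraries). Genes passing edgeR's filter on low counts (15600 and 15448) were tested with TMM scaling and quasi-likelihood F tests in edgeR 4.0.16 (R 4.3.3), with an adjusted p threshold of 0.05. The common biological coefficient of variation was 1.15 and 0.901. Alternatives used DESeq2 1.42.0, limma 3.58.1, RLE scaling, no filter, cells scaled to 1 total, the shared sequencing run, the animal as a block, and each library left out in turn. Tables were made with Python 3.11.15, pandas 2.3.3, numpy 2.4.6, SciPy 1.17.1 and matplotlib 3.10.9. Scripts were tested on simulated data with less spread than these data, which checks the code and not the calls. No doublet caller was run.

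Named genes are, per comparison and direction, up to 10 called genes with the largest fold, the same direction in both animals, a mean of at least 50 CPM and 10 reads in at least 1 in 2 cells of the higher label; genes of fixed lists are described as well. Shared genes were called above all 3 other compartments and detected in at least 1 in 3 cells of each label. Some genes that these rules and lists hold are not reported here. The members, lists and rules were chosen with earlier results of these data known. All libraries of an animal come from the same animal, which pairs them. Across 8159 genes, the female minus male log2 difference correlated between labels with r of 0.0411 to 0.0639. The 72 cells held 94326 to 3805806 reads each, and intervals on shares cover counting error only. Samples at normal oxygen were not analysed here.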

Additional observations from a re-analysis of the deposited data

Results flagged for a closer look

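Among the 9 IL cells of the female, cell 11 held 3805806 reads, far from the others of its group. It met the IL rule, with Il17rb at 203.9 CPM and no CD3 chain at 50 CPM. Among the 7 NK cells of the male, cell 8 held 2761069 reads, again far from the rest. It carries NK markers and CD3 chains together, and its Cd3d and Trac reads add to the male NK library. Chance sets a cell apart by this measure in about 1 in 20 groups.

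For 3 of the given markers the labels were ordered differently in the female and the male. Cd3d was higher in IL than in NK cells in the female (420 against 330 CPM) and lower in the male (28.5 against 1355 CPM). It was present in 2 of 9 IL and 2 of 5 NK cells of the female. In the male it was present in 1 of 5 IL and 3 of 7 NK cells. The 2 IL cells of the female are cells 4 and 9, which also carried Trdc. Trac was higher in T than in NK cells in the female (879 against 19.8 CPM) and slightly lower in the male (840 against 865 CPM). Il7r was higher in T than in IL cells in the female (1046 against 433 CPM) and lower in the male (418 against 576 CPM). These differences between the animals were not tested.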

How the results depend on the processing

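Shares of genes called between T and NK, T and IL, and IL and NK cells were 1.29, 1.13 and 2.28%. DESeq2 gave 16.4, 14.3 and 19.1%, limma voom 5.37, 4.92 and 3.6%, a fit of the 3 labels alone 0.00955, 0.21 and 0.239%, and the shared sequencing run 0.436, 0.132 and 0.925%. Of the main calls, the fit of the 3 labels alone kept 0, 12 and 16 genes, and the shared run 19, 17 and 65. Shares of genes called thus do not show how many main calls were kept. Leaving out 1 library gave 0.319 to 2.04%, 0.289 to 0.749% and 1.45 to 3.34%. Without the doubted cells, chosen after seeing the data, T against IL gave 0.578%, and 58.9% rather than 83.1% of its calls were higher in T cells. The fits of 3 labels and with a library left out rest on fewer libraries, and the shared run on fewer cells; otherwise the cause was not tested. A library left alone in its label was assumed to vary like the others.

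Against B cells, granulocytes and mononuclear phagocytes, 1.44, 3.84 and 5.59% of genes were called. DESeq2 gave 14.6, 20.3 and 22.9%, voom 2.84, 9.74 and 18.99%, and the fit of 15 subtypes 6.16, 10.4 and 16.3%. Without the doubted cells B cells gave 2.22%. Leaving out 1 lymphoid library gave 1.82 to 3.05% against granulocytes and 2.79 to 4.63% against mononuclear phagocytes. Genes above all 3 (0.104%) were 0.99% with DESeq2, 0.602% with voom, 0.0128% in the fit of 15 subtypes and 0.0359 to 0.054% with 1 library left out.

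With the animal as a replicate block, 0.0647% of genes lay above all 3 compartments, and the other counts stayed within 1.5 times. For reported genes picked by the naming rule, and for Skap1, Thy1, Hsd11b1 and Bin2, calls that the block ended are given beside the gene. Calls of other genes in the text were not followed one by one. Among them are Gzma between IL and NK cells and Id2 between T and IL cells.

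Among 860 alternative values of named genes, none changed sign, which the choice of called genes with large folds made likely beforehand. Of these values, 584 kept the call and 32.1% lost it. Klf2 (T against IL and IL against NK cells) and Epsti1 (T against IL cells) kept it in all 13. RLE scaling moved the median log2 difference of all genes from 0.41 to 0.04 (T against NK) and from 0.28 to 0.04 (T against IL). Median genes per cell, averaged over the animals, were 2270 in T and 3169 in IL cells, 3013 and 3974 without thinning, and 1722 and 2441 with at least 5 reads. The IL rule was met by 77.8% of female and 100% of male IL cells. Groups of 5 and 7 NK cells limit every NK value.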
